A study of Mus musculus with 12 samples.

Results

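The TRAV3 family is a small group of variable (V) segments of the mouse T cell receptor alpha (TCRα) locus. It was followed here in the TCRα repertoire of newly developed thymic regulatory T cells (Treg). Its members were taken by name: all in-frame clonotypes whose V segment was called TRAV3, TRAV3D or TRAV3N followed by a number, whatever their level. This gave 1055 of the 20615 in-frame clonotypes of the series (5.12%), a clonotype being a combination of V segment, CDR3 amino acids and J segment. They held 8717 of 190549 in-frame molecules, counted by unique molecular identifiers (UMIs), short random tags that mark single cDNA molecules.

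The 12 libraries came from 12 individual B6 mice aged 3 weeks, in 3 groups of 4: wt, Il2° (no functional Il2 gene) and Il15° (no functional Il15 gene). Every group, controls included, carried Rag2-Gfp, Foxp3-Thy1a, the Kaa Tcrb transgene and 1 null allele of Tcra, and the sort gate was CD4+CD8-Thy1.1+GFP+. The Kaa chain is a public TCRβ of the response to myelin oligodendrocyte glycoprotein, so that in these mice the α chain alone varied, on 1 allele, and shares here belong to that fixed β chain. Thy1.1 reports Foxp3, and GFP under the Rag2 promoter marks cells that have only just developed.

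TCRα genes are assembled in the thymus by joining 1 V segment to 1 J segment. The first joins on an allele use J segments close to the V cluster, and later joins on the same allele replace them with J segments farther away and V segments farther out. The CDR3 loop encoded at the joint lies over the presented peptide, whereas CDR1 and CDR2 are germline parts of the V segment. IL-2 and IL-15 are cytokines that share receptor chains and sustain Treg development.

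Libraries held 7625 to 25980 UMIs each, 7293 to 24811 of them in frame and 362 to 979 of those TRAV3. The share that a count of 0 allows lay between 0.0121 and 0.0411% of in-frame UMIs, by library. UMIs count mRNA molecules, so fewer cells with a chain and less Tcra mRNA per cell cannot be told apart, and intervals and floors cover counting error only. Chains of other lineages that could enter the gate were rare. They were counted by V and J segment alone, whatever the CDR3, so unrelated chains with the same segments may be included. The invariant NKT chain (TRAV11 or TRAV11D with TRAJ18) stayed at or below 0.115% of in-frame UMIs. The chain of mucosal-associated invariant T cells (TRAV1 with TRAJ33) lay between 0.0324 and 0.122% in wt, between 0.0412 and 0.247% in Il2° and between 0 and 0.0290% in Il15° libraries, and its part in the results below was not tested.

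4 names were found: TRAV3D-3 with 507 clonotypes, TRAV3-3 with 383, TRAV3-1 with 126 and TRAV3-4 with 39. In the GRCm38 annotation (GENCODE M21) all lie on the plus strand of chromosome 14, Trav3-1 at chr14:52580665-52581213, Trav3d-3 at chr14:52972448-52973038, Trav3-3 at chr14:53665929-53666506 and Trav3-4 at chr14:53776956-53777576. Their ends are 1574, 1182, 488 and 377 kb from the first annotated J segment. Another gene, Trav3n-3 at chr14:53283585-53284175, 871 kb from the first J segment, has the same 280 bases of mature V sequence as Trav3d-3. No clonotype carried its name, and TRAV3D-3 below therefore stands for transcripts of both genes. Trav3-3 differed from Trav3d-3 at 4 of the 280 bases (98.6% identity), Trav3-1 and Trav3-4 each at 26 (90.7%), and Trav3-1 from Trav3-4 at 6 (97.9%). The following stretches, bases 61 to 130 of the mature V region in its second exon, show where the members part, with capitals at bases that differ from Trav3d-3.
Trav3d-3: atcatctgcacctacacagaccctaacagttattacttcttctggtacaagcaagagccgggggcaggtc
Trav3-3: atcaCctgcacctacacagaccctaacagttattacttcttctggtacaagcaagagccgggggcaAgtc
Trav3-1: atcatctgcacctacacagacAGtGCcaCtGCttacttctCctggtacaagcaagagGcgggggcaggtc
Trav3-4: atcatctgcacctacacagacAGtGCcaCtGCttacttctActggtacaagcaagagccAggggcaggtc

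Bases 136 to 185, which follow shortly after, separate the same pairs, again with capitals where the base differs from Trav3d-3. Trav3-3 and Trav3d-3 are the same letter for letter there, and Trav3-1 and Trav3-4 are nearly so.
Trav3d-3: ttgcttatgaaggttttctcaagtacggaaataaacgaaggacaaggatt
Trav3-3: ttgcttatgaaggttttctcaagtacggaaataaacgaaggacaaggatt
Trav3-1: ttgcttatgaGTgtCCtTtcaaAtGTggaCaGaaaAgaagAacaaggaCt
Trav3-4: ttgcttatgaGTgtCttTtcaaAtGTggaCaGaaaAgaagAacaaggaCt

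All 5 genes end in the same 13 bases, tgcgcagtcagtg, which encode Cys-Ala-Val-Ser and the first base of the next codon. The CDR3 therefore does not tell the members apart. Of 618 TRAV3 CDR3 nucleotide sequences found in 2 or more libraries, 95 (15.4%) carried different TRAV3 names in different libraries, so each value given for a single name has that uncertainty. Values for the whole family do not depend on it. Across the libraries 94.8% of TRAV3 UMIs (91.7 to 96.5%) encoded a CDR3 starting with Cys-Ala-Val.

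The clonotypes below are shown because they hold the highest mean shares of the family. Their most frequent nucleotide sequence is given with capitals at the bases between the deposited V end and J start, called inserted bases here. They join the shared V end to TRAJ21, TRAJ17, TRAJ9, TRAJ39 and TRAJ42.
TRAV3D-3 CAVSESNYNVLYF TRAJ21: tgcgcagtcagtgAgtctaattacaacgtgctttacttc
TRAV3D-3 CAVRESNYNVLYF TRAJ21: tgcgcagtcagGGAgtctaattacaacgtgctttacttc
TRAV3D-3 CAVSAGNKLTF TRAJ17: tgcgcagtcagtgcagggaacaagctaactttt
TRAV3D-3 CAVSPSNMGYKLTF TRAJ9: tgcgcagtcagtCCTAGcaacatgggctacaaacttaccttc
TRAV3-3 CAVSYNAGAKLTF TRAJ39: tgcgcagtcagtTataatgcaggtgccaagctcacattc
TRAV3-3 with Thr at residue 4 and TRAJ42: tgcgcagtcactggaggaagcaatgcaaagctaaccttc

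The TRAJ17 and TRAJ42 sequences contain no inserted base. In the TRAJ42 sequence the deposited V end lies at base 13, past a base that differs from the shared V end. In the TRAJ9 sequence the last 2 capitals are also the bases of germline TRAJ9 at that place, so the deposited J start leaves 2 germline bases among the inserted ones. Of TRAV3 rows with an inserted base, 107 of 181 with TRAJ9 and 5 of 6 with TRAJ24 were of this kind, and 1 of 1672 with the other J segments checked. In the pair that uses TRAJ21, the 2 chains differ only in the fourth residue, Ser or Arg, encoded where the V end was kept whole or trimmed by 2 bases. The germline J segments behind them, given so that the joints can be read, lie at chr14:54198790-54198846 (TRAJ21), chr14:54201775-54201837 (TRAJ17) and chr14:54179962-54180024 (TRAJ39), on the plus strand of GRCm38.
TRAJ21: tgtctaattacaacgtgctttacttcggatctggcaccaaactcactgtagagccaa
TRAJ17: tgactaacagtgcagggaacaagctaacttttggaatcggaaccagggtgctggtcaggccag
TRAJ39: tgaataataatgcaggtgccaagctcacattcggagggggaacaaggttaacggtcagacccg

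The first question was how much of the repertoire the family held and whether the loss of either cytokine changed it. TRAV3 took 4.70% ± 0.651 (SD, n = 12 mice) of in-frame UMIs and ranked 6 of 20 TRAV families. The wt libraries held 3.95, 3.91, 4.72 and 5.06% TRAV3. The Il2° libraries held 4.57, 4.97, 5.14 and 4.96%, and the Il15° libraries 4.47, 4.53, 6.21 and 3.92%. The 3 groups overlapped, and Il15° replicate 3 stood highest of all. The means were 4.41% ± 0.573 (wt), 4.91% ± 0.242 (Il2°) and 4.78% ± 0.991 (Il15°). The exact 2-sided Mann-Whitney p was 0.343 for Il2° against wt, 0.886 for Il15° against wt and 0.343 for Il15° against Il2° (adjusted over the 3 comparisons 0.514, 0.886 and 0.514), where 4 against 4 cannot go below 0.0286.

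**Figure D1:**
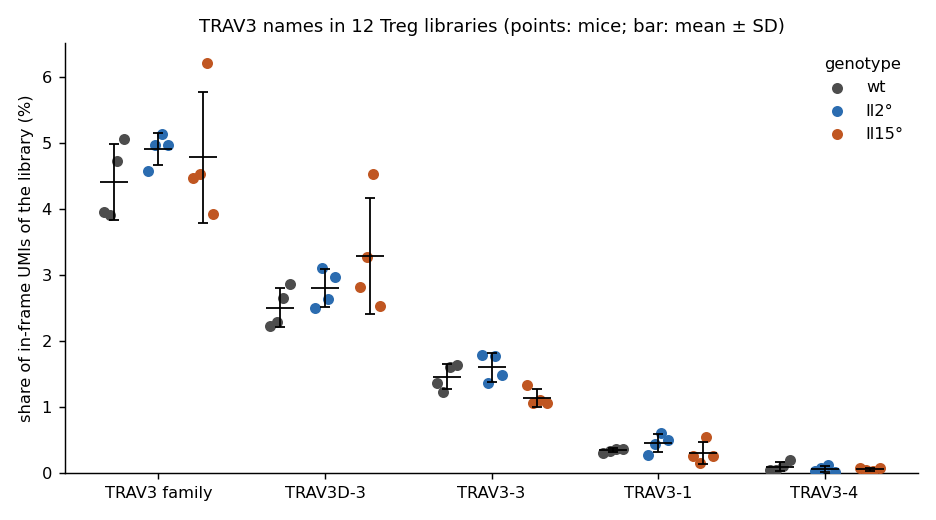
Share of in-frame UMIs (%, y axis) held by the TRAV3 family and by each of its 4 names (x axis) in 4 wt, 4 Il2° and 4 Il15° libraries. Points are mice, and bars give the mean ± SD. The family lay between 3.91 and 6.21% in every library, and TRAV3D-3 was the most abundant name in all 12.

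TRAV3D-3 was the main member, with 5262 UMIs and a mean share of 2.87% ± 0.609 (SD, n = 12). The wt libraries held 2.22, 2.29, 2.64 and 2.86% of it, the Il2° libraries 2.50, 3.10, 2.64 and 2.98%, and the Il15° libraries 2.82, 3.27, 4.53 and 2.54%. TRAV3-3 followed with 2643 UMIs (1.40% ± 0.261). It held 1.37, 1.23, 1.61 and 1.63% in wt, 1.78, 1.36, 1.77 and 1.48% in Il2°, and 1.33, 1.06, 1.10 and 1.06% in Il15° libraries, so that every Il15° library lay below every Il2° library, while 1 Il15° library overlapped wt. TRAV3-1 (673 UMIs, 0.366% ± 0.136) and TRAV3-4 (139 UMIs, 0.0698% ± 0.0505) were minor members whose shares overlapped between all groups. These 4 levels were in the same order in the mean of every genotype.

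In edgeR's quasi-likelihood test, fitted over 86 TRAV segment names, no TRAV3 name passed an adjusted p of 0.05 in any comparison. The share of all names that passed was 3.49% for Il2° against wt, 0% for Il15° against wt and 3.49% for Il15° against Il2°. TRAV3D-3 had the lowest p of the family in both Il15° comparisons, with a log2 fold change of 0.37 (SE 0.19, edgeR adjusted p = 0.417) against wt and 0.42 (SE 0.19, adjusted p = 0.233) against Il2°. Without Il15° replicate 3 these values were 0.19 and 0.21. At an unadjusted p under 0.05, 1 of the 4 names passed in Il15° against Il2° and 0 in the other comparisons, beside 16, 12 and 8 of the 86 names in Il15° against Il2°, Il2° against wt and Il15° against wt. TRAV3-3 showed log2 fold changes of -0.38 (SE 0.19) against wt and -0.31 (SE 0.20) against Il2°, with adjusted p of 0.417 and 0.320.

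The composition of the family was then compared, since its total overlapped between genotypes. Of the TRAV3 UMIs, TRAV3D-3 took 56.9% ± 1.22 in wt (56.0 to 58.7), 57.1% ± 4.99 in Il2° (51.3 to 62.3) and 68.2% ± 5.08 in Il15° libraries (63.0 to 72.9). Each Il15° library was higher than each wt and each Il2° library, a difference of 11.3 and 11.2 percentage points with the smallest exact Mann-Whitney p that 4 against 4 can give, 0.0286. TRAV3-3 took 33.1% ± 1.45 in wt, 32.7% ± 5.18 in Il2° and 24.4% ± 5.16 in Il15° libraries, which did not overlap wt (17.8 to 29.7 against 31.5 to 34.6) but overlapped Il2° (27.3 to 39.0, exact p = 0.0571). Adjusted over the 12 tests of names within the family, which were added after the values were seen, none passed (0.114 for the 3 that did not overlap). Shares within the family add up to a fixed total, of which TRAV3D-3 and TRAV3-3 held 60.7 and 30.1% on average. The higher share of the first and the lower share of the second are therefore not separate results. For all segments measured against their own family, the share that did not overlap was 5% for Il2° against wt, 11.2% for Il15° against wt and 5% for Il15° against Il2°, over 80 segments.

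Il15° replicate 3, the library with the most TRAV3D-3, did not carry this difference alone. Without it, TRAV3D-3 still took 66.7% ± 4.93 of TRAV3 UMIs in Il15° libraries and did not overlap either group. Without its most abundant clonotype, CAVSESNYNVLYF with TRAJ21, TRAV3D-3 took 63.7% ± 4.44 in Il15° libraries (58.4 to 68.4). That did not overlap wt (49.4 to 55.4) but overlapped Il2° (48.6 to 58.6, exact Mann-Whitney p = 0.0571). Counted as clonotypes in place of UMIs, TRAV3D-3 held 56.9% ± 2.85 in Il15°, 49.4% ± 1.52 in wt and 49.1% ± 2.43 in Il2° libraries, again without overlap (exact p = 0.0286 each). TRAV3-3 then overlapped wt, at 31.2% ± 3.87 against 35.9% ± 0.371 (exact p = 0.343). As a share of all in-frame UMIs, TRAV3D-3 overlapped between the groups (exact p = 0.2 against wt and 0.486 against Il2°), and only the lower TRAV3-3 share of Il15° against Il2° libraries was without overlap (1.13% ± 0.130 against 1.60% ± 0.213, exact p = 0.0286, adjusted p = 0.343 over 12 tests). Among all 86 names on that scale, 5.81%, 5.81% and 8.14% did not overlap in Il2° against wt, Il15° against wt and Il15° against Il2°.

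**Figure D2:**
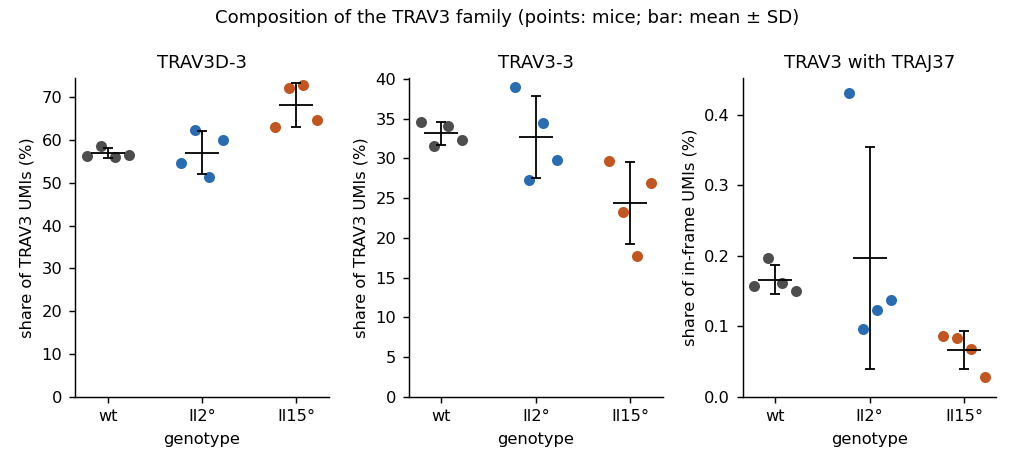
Left and middle, share of TRAV3 UMIs (%, y axis) held by TRAV3D-3 and TRAV3-3. Right, share of in-frame UMIs (%) held by TRAV3 joined to TRAJ37. Points are mice by genotype (x axis), and bars give the mean ± SD. TRAV3D-3 ranged from 63.0 to 72.9% in Il15° and did not exceed 62.3% in the other libraries.

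J pairing differed between the members. The J segments were grouped by number into a V-proximal block (TRAJ41 and above), a middle block (TRAJ22 to TRAJ40) and a V-distal block (TRAJ21 and below). TRAV3D-3 placed 0.493% ± 0.601 of its UMIs in the V-proximal, 29.5% ± 5.18 in the middle and 69.96% ± 5.33 in the V-distal block (mean ± SD, n = 12 libraries). TRAV3-3, whose gene lies closer to the J segments, placed 21.7% ± 3.25, 65.6% ± 8.30 and 12.7% ± 6.47 there. The difference had the same sign in 12 of 12 libraries for every block: the V-distal share of TRAV3D-3 was higher by 57.2 percentage points and its V-proximal share lower by 21.2. The exact sign-flip permutation p was 0.000488, the smallest that 12 libraries can give (adjusted over 18 tests 0.000977). These tests between members were also added after the values were seen. Counting each clonotype once kept the V-distal difference at 48.9 points in 12 of 12 libraries.

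TRAV3-1, the gene farthest from the J segments, paired mostly with the middle block (57.3% ± 11.3) and the V-distal block (40.3% ± 10.2). It fell between the other 2 names in V-distal use, 29.6 points under TRAV3D-3 and 27.6 points over TRAV3-3, each in 12 of 12 libraries (exact sign-flip p = 0.000488). The order of V-distal use in these names thus did not follow the order of their genes on the chromosome. TRAV3-4 had only 1 to 33 UMIs per library, and its block shares (31.2, 43.0 and 25.8%) are too thinly counted to compare.

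**Figure D3:**
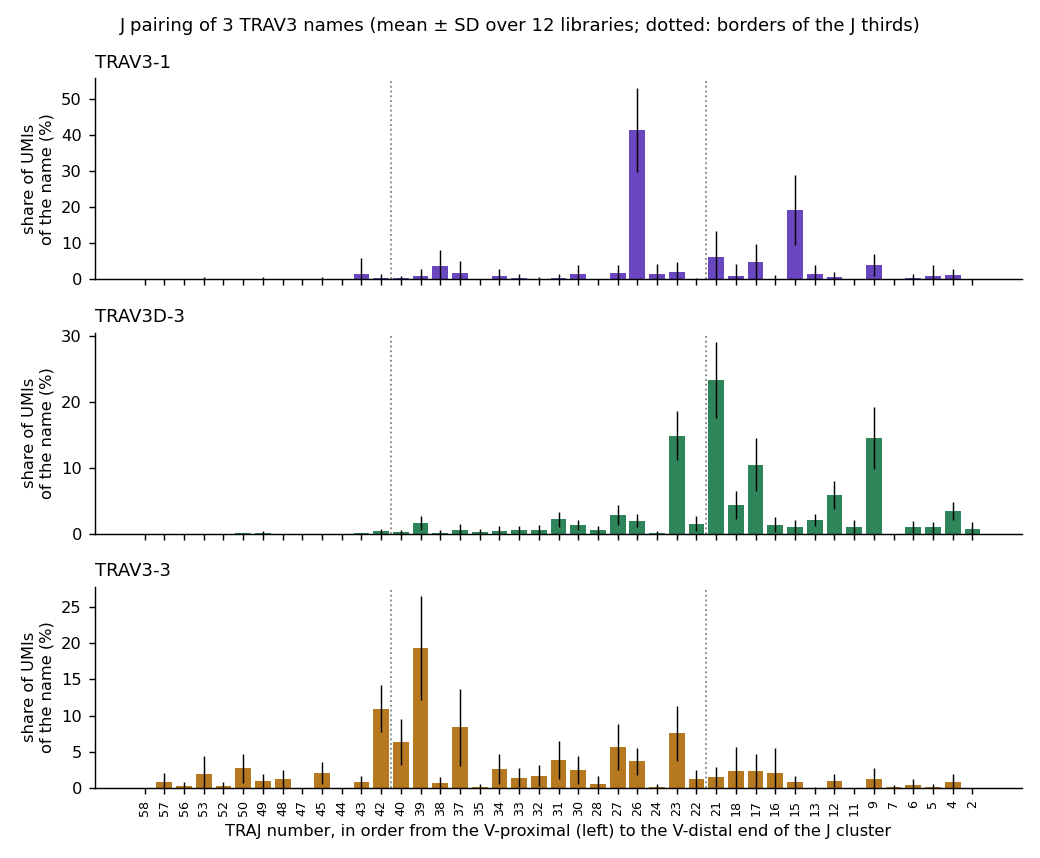
Share of the UMIs of each name (%, y axis) joined to each J segment, with J numbers ordered along the x axis from the V-proximal to the V-distal end. Bars give the mean and lines the SD over 12 libraries, and dotted lines mark the borders of the 3 J blocks. TRAV3D-3 was concentrated from TRAJ23 onwards, TRAV3-3 was centred on TRAJ39, and TRAV3-1 on TRAJ26 and TRAJ15.

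Single J segments also differed between the members. TRAV3D-3 was joined to TRAJ21 in 23.3% ± 5.74 of its UMIs (13.4 to 32.9 over the 12 libraries), to TRAJ23 in 14.9% ± 3.77, to TRAJ9 in 14.5% ± 4.70 and to TRAJ17 in 10.4% ± 4.00. TRAV3-3 was joined to TRAJ39 in 19.3% ± 7.19 (2.63 to 29.7), to TRAJ42 in 10.97% ± 3.23, to TRAJ37 in 8.40% ± 5.33 and to TRAJ23 in 7.58% ± 3.80. TRAV3-1 used TRAJ26 in 41.5% ± 11.7 and TRAJ15 in 19.4% ± 9.77 of its UMIs. Beside these figures, clonotypes of other V families used TRAJ21 in 4.08% ± 0.585, TRAJ39 in 2.60% ± 0.206 and TRAJ26 in 3.47% ± 0.329 of their UMIs. They used TRAJ23 in 6.14%, TRAJ9 in 7.03%, TRAJ17 in 4.40%, TRAJ42 in 1.43%, TRAJ37 in 5.37% and TRAJ15 in 5.58%. The TRAJ23 and TRAJ37 shares of TRAV3-3 lay within their SD of these values.

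The 6 most used J segments of the whole family overlapped between all genotypes, and 2 less used ones, TRAJ32 and TRAJ37, are described with the V-J pairs below. TRAJ49, which rested on only 34 TRAV3 UMIs, also did not overlap between Il15° (0 to 0.143%) and wt libraries (0.224 to 1.30%). The share of TRAJ21 in TRAV3 UMIs was 14.2% ± 2.61 (11.5 to 17.6) for wt, 13.4% ± 4.71 (8.29 to 19.6) for Il2° and 18.0% ± 5.51 (11.03 to 24.1) for Il15° mice. TRAJ23 was in 10.5% ± 1.37, 12.1% ± 1.59 and 12.3% ± 3.26, TRAJ9 in 8.79% ± 1.49, 8.72% ± 2.62 and 11.3% ± 5.01, and TRAJ39 in 7.82% ± 1.88, 8.02% ± 2.16 and 6.38% ± 4.49, in the same order of groups. TRAJ17 (7.17, 7.04 and 7.96%) and TRAJ26 (5.87, 6.20 and 4.53%) were the other J segments that held at least 5% of the family in some genotype. Single libraries of 1 genotype could lie far apart. TRAJ39 was in 11.5% of TRAV3 UMIs of Il15° replicate 1 and in 1.09% of those of Il15° replicate 3.

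By J block, the wt libraries had 8.07, 7.83, 10.2 and 10.3% of their TRAV3 UMIs in the V-proximal one, the Il2° libraries 6.36, 6.28, 10.4 and 6.35%, and the Il15° libraries 5.71, 5.57, 5.14 and 7.74%. All Il15° libraries lay below all wt libraries (6.04% ± 1.16 against 9.09% ± 1.32, exact Mann-Whitney p = 0.0286), and the nearest values were 7.74 and 7.83%. Adjusted over the 9 tests of J blocks the p was 0.257, and no other block in any comparison went below that. Within TRAV3-3 alone, which holds most of the V-proximal joins, the V-proximal share was 20.6 to 24.9% in wt and 17.5 to 24.5% in Il15° libraries, and the groups overlapped.

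V-J pairs were tested by TRAV family over 342 pairs, 31 of them TRAV3. edgeR's quasi-likelihood test called 0 TRAV3 pairs in each comparison, beside 1.17% of all pairs in Il2° against wt, 0% in Il15° against wt and 3.8% in Il15° against Il2°. At an unadjusted p under 0.05 it passed 0, 3 and 2 TRAV3 pairs in these comparisons, and 41, 31 and 54 of all pairs. DESeq2 and limma each called 1 TRAV3 pair in Il15° against Il2°, TRAV3 with TRAJ32, beside 18 and 5 of all 342 pairs. Of TRAV3 UMIs this pair held 0.653% ± 0.195 in wt, 1.65% ± 0.796 in Il2° and 0.201% ± 0.322 in Il15° libraries (0 to 0.676%). TRAJ32 in other V families held 2.19 to 2.79% of their UMIs in wt, 1.62 to 1.96% in Il2° and 1.04 to 1.77% in Il15° libraries. There too Il15° lay below wt without overlap, but it overlapped Il2°. The log2 fold change of TRAV3 with TRAJ32 in the edgeR fit was -3.06 (SE 1.11, adjusted p = 0.0944). It rested on only 70 in-frame UMIs over the 12 libraries. Of its 87 UMIs in all rows, 17 were left out for a stop or frame shift.

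The lowest edgeR p of the TRAV3 pairs in both Il15° comparisons was that of TRAV3 with TRAJ37, singled out after its values were seen. It held 0.157, 0.197, 0.162 and 0.150% of in-frame UMIs in wt, 0.432, 0.0964, 0.124 and 0.137% in Il2°, and 0.0869, 0.0841, 0.0677 and 0.0281% in Il15° libraries, where it rested on 5 to 15 UMIs each. On that scale every Il15° library lay below every other library. As a share of TRAV3 UMIs, Il15° replicate 1 (1.946%) lay above Il2° replicate 2 (1.941%). The log2 fold change was -1.29 (SE 0.50, edgeR adjusted p = 0.269) against wt and -1.54 (SE 0.51, adjusted p = 0.0597) against Il2°, and -0.76 (adjusted p = 0.523) against Il2° when Il2° replicate 1, the highest library, was left out. Most of these molecules were TRAV3-3, which gave 103 UMIs over the wt, 94 over the Il2° and 33 over the Il15° libraries. Within TRAV3-3, the TRAJ37 share of Il15° libraries (2.66 to 6.52%) overlapped wt (5.86 to 11.3%) and Il2° (5.44 to 23.3%). Of all V-J pairs, 7.6%, 5.85% and 9.06% did not overlap between Il2° and wt, Il15° and wt, and Il15° and Il2°. TRAJ37 in other V families held 5.69 to 7.21% of their UMIs in wt, 4.48 to 5.09% in Il2° and 4.48 to 5.93% in Il15° libraries.

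Next, the CDR3 was compared between TRAV3 and all other in-frame clonotypes of the same library. The mean length was the same to within the spread, 13.04 residues ± 0.104 for TRAV3 and 13.08 ± 0.0175 for the others (exact sign-flip p = 0.173). The lengths around that mean were not. TRAV3 had more CDR3s of 13 residues (47.3% ± 4.17 against 33.2% ± 1.76) and of 11 residues (14.3% ± 3.20 against 8.19% ± 0.478), and fewer of 12 (7.94% ± 2.67 against 17.0% ± 0.616) and 14 residues (18.7% ± 3.83 against 31.3% ± 1.04). Each of these differences had 1 sign in 12 of 12 libraries (exact sign-flip p = 0.000488, adjusted over 5 classes 0.000610) and kept it when each clonotype was counted once. The length classes were chosen after the data were seen.

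**Figure D4:**
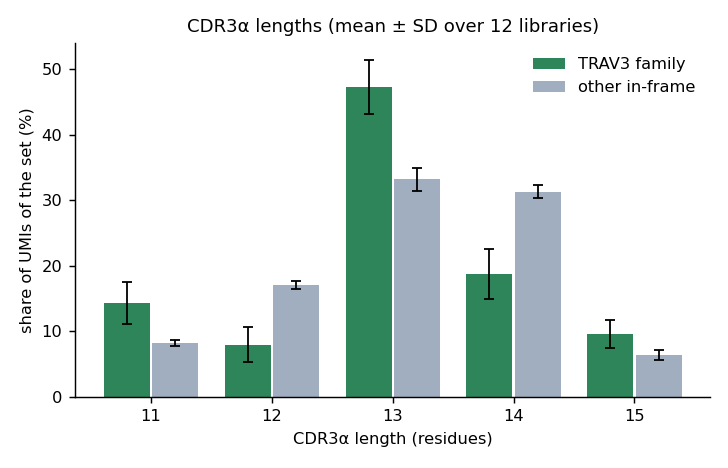
Share of UMIs (%, y axis) with a CDR3α of 11 to 15 residues (x axis) among TRAV3 clonotypes and among all other in-frame clonotypes. Bars are means and lines the SD over 12 libraries. TRAV3 was higher at 11, 13 and 15 residues and lower at 12 and 14.

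The hydrophobic share of the central CDR3 residues (Phe, Ile, Leu, Met, Val, Trp or Tyr, leaving 3 residues off each end) was 15.4% ± 1.38 for TRAV3 and 13.4% ± 0.422 for the others. It was higher in 11 of 12 libraries (exact sign-flip p = 0.000977, adjusted over 6 measures 0.00586). It depended on how abundant clonotypes were weighted. Counted once each, TRAV3 was lower by 0.737 percentage points (exact p = 0.0112), and without the leading clonotype the difference was 0.627 points (exact p = 0.0400). The lower use of the middle block by TRAV3 (42.8% ± 6.77 against 49.9% ± 3.43, adjusted p = 0.0264 from the exact test) and its higher use of the V-distal block (49.7% ± 7.26 against 43.7% ± 3.40, adjusted p = 0.0303) were likewise lost without that clonotype, at -2.73 and 0.891 points, and with each clonotype counted once, at -0.435 and -0.372 points. Neither kept an adjusted p under 0.05 when wt replicate 2, 3 or 4 or Il15° replicate 2, 3 or 4 was left out, with ranges of -7.94 to -5.72 and 4.47 to 7.03 points.

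Among the members, TRAV3D-3 had the more hydrophobic loop, 18.7% ± 1.75 of central residues against 9.56% ± 1.63 in TRAV3-3 and 13.01% ± 2.05 in TRAV3-1. It was higher in 12 of 12 libraries in both comparisons (exact sign-flip p = 0.000488, adjusted over 18 tests 0.000977), also with each clonotype counted once. TRAV3-1 had the shorter CDR3, 12.1 residues ± 0.630, about 1 residue less than TRAV3D-3 (13.1 ± 0.142) and TRAV3-3 (13.1 ± 0.186), in 10 of 12 libraries each (exact p = 0.00195, adjusted p = 0.00320). The mean number of inserted bases was 2.08 ± 0.258, 2.13 ± 0.206 and 2.25 ± 1.47 in TRAV3D-3, TRAV3-3 and TRAV3-1, and 1.94 ± 0.215, 2.12 ± 0.199 and 2.21 ± 1.45 when germline J bases left before the deposited J start were not counted as inserted.

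Residue 4 of the CDR3, the last that the germline V end encodes whole, was Ser in 60.0% of TRAV3 UMIs (52.9 to 68.5 over libraries) and in 29.0% of the other UMIs. Ser, the germline residue, was found in 65.1% of TRAV3D-3, 56.0% of TRAV3-3 and 38.6% of TRAV3-1 UMIs, and Asn in 18.7% of the last. Arg was in 15.1% of TRAV3 UMIs at this position, and Thr in 14.4% of TRAV3-3 but 4.29% of TRAV3D-3 UMIs. Residue 5 was Glu in 24.3% of TRAV3D-3 UMIs, in 3.09% of TRAV3-3 and in 5.31% of other UMIs. In TRAV3-3 it was most often Gly (21.2%), and in TRAV3-1 Tyr (30.3%). All 13 germline V bases were counted as kept in 52.8% of TRAV3D-3, 39.4% of TRAV3-3 and 22.8% of TRAV3-1 UMIs. No base was inserted in 27.6, 28.9 and 45.1% of them. The deposited V end can lie past a changed base, as in the TRAJ42 sequence above, so the shares counted as kept may be too high.

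Between genotypes no CDR3 measure of the family passed after adjustment. The mean length came to 13.06 residues ± 0.0530 for wt, 12.96 ± 0.133 for Il2° and 13.11 ± 0.0514 for Il15° mice (exact Mann-Whitney, adjusted p of 0.171 or more). Hydrophobic central residues made up 15.3% ± 0.844, 14.8% ± 1.52 and 16.2% ± 1.56 (adjusted p of 0.600 or more), and inserted bases numbered 2.12 ± 0.0571, 2.03 ± 0.307 and 2.14 ± 0.0936 (adjusted p of 1). Ser at residue 4 made up 59.5% ± 5.09 for wt, 54.9% ± 1.93 for Il2° and 65.4% ± 3.61 for Il15° mice, and Il15° did not overlap Il2° (exact p = 0.0286). Asn at residue 5 was in 7.42% ± 2.41, 11.1% ± 0.716 and 8.28% ± 1.39, and Il2° overlapped neither other group (exact p = 0.0286 each). Of 66 such tests, chosen after the data were seen, 7 reached 0.0286, and the lowest adjusted p was 0.269.

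The leading clonotype was TRAV3D-3 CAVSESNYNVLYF TRAJ21, 8 of 20615 by mean share of in-frame UMIs (0.466%) and present in all 12 libraries. The wt libraries had 75, 67, 95 and 88 of its UMIs, the Il2° libraries 35, 96, 40 and 12, and the Il15° libraries 86, 73, 129 and 52. As shares these were 0.434% ± 0.162, 0.315% ± 0.162 and 0.649% ± 0.415, with overlap between all groups. In Il15° replicate 3 it reached 1.25% (95% Wilson interval 1.05 to 1.48) and made up 20.1% of the TRAV3 UMIs. 676 of its 848 UMIs (79.7%) carried the sequence printed above, with 1 inserted base, and 167 (19.7%) carried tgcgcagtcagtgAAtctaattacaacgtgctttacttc. The log2 fold change of Il15° against Il2° was 0.96 (SE 0.44, edgeR adjusted p = 0.321), and 0.29 without Il15° replicate 3. Against wt it was 0.57, and -0.017 without that library.

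TRAV3D-3 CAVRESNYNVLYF TRAJ21, the chain with Arg in place of Ser, had a mean share of 0.154% and was also found in all 12 libraries. The wt libraries had 19, 25, 18 and 11 of its UMIs, the Il2° libraries 26, 41, 43 and 13, and the Il15° libraries 28, 15, 21 and 16. As shares, Il2° (0.178 to 0.295%) lay above wt (0.0659 to 0.117%) in every library. Of the 647 clonotypes with enough counts to fit, 7.57% did not overlap in Il2° against wt, 6.49% in Il15° against wt and 8.19% in Il15° against Il2°. The log2 fold change was 1.35 (SE 0.50, edgeR adjusted p = 0.390), the lowest p of the TRAV3 clonotypes in that comparison. Its Ser counterpart had a negative value there, -0.39 (SE 0.44, adjusted p = 0.945).

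The other leading chains varied more between mice than between genotypes. TRAV3D-3 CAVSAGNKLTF TRAJ17 was found in 10 libraries, with 0 to 32 UMIs, and TRAV3D-3 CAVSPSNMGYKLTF TRAJ9 in 11, with 0 to 25 UMIs. Both were at 0 in wt replicate 3. The leading TRAV3-3 chains with TRAJ39 (1 to 31 UMIs) and with TRAJ42 (3 to 19 UMIs), both printed above, were found in all 12 libraries. None of the 4 had an edgeR adjusted p under 0.8 in any comparison.

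**Figure D5:**
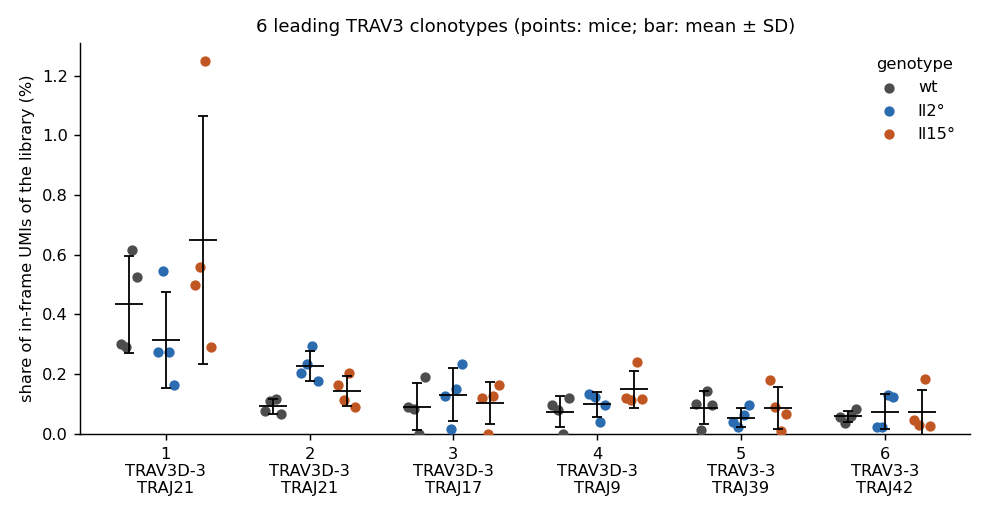
Share of in-frame UMIs (%, y axis) of the 6 TRAV3 clonotypes with the highest mean share, each labelled by V and J segment (x axis). Points are mice by genotype, and bars give the mean ± SD. Clonotype 1 ranged from 0.165 to 1.25%, and clonotype 2 was the one of these 6 whose Il2° libraries all lay above the wt libraries.

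Of these 647 clonotypes (at least 5 UMIs in at least 4 libraries), 34 were TRAV3. edgeR called 0 of the 34 in every comparison, beside 0%, 0% and 0.618% of all clonotypes in Il2° against wt, Il15° against wt and Il15° against Il2°. Unadjusted p under 0.05 was reached by 1, 1 and 6 TRAV3 clonotypes, and by 53, 40 and 92 of all. DESeq2 and limma also called 0 TRAV3 clonotypes. Counts were also simulated with the mean levels and library sizes of these clonotypes and 1 common spread for all of them. The fit recovered 5 of 200 that were changed 4-fold in Il15° against Il2°, with 1 false call. Clonotypes with a spread of their own, such as the leading ones, were not simulated. The lowest p in both Il15° comparisons belonged to TRAV3D-3 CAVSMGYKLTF TRAJ9, with 2, 4, 6 and 7 UMIs in the wt mice, 0, 5, 7 and 6 in the Il2° mice, and 0, 0, 0 and 1 in the Il15° mice (adjusted p = 0.524 and 0.219).

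Sharing between mice was close to that of other families for clonotypes found in 1 library and in 8 or more. 520 TRAV3 clonotypes (49.3%) were found in 1 library, against 52.8% of other clonotypes, and 40 (3.79% against 3.69%) in 8 or more. These 40 had a mean of 3.73 nucleotide sequences each and a shortest insertion of 0.875 bases on average. Those in 1 library had 1.01 sequences and a shortest insertion of 3.06 bases. A shortest value taken over more sequences is lower by construction, so these 2 lengths cannot be compared directly. Other families gave 5.06 sequences and 1.01 bases in 8 or more libraries, and 3.22 bases in 1 library. Public clonotypes, present in all 4 mice of a group, numbered 25 in wt, 23 in Il2° and 17 in Il15°, and 6 were public in all 3. These were 2.37, 2.18, 1.61 and 0.569% of TRAV3 clonotypes. The same shares of other clonotypes were 3.03, 2.04, 1.97 and 0.859%, higher in wt and in all 3 groups together. Of the 25 public in wt, 12 (48%) were not public in Il2° and 17 (68%) were not public in Il15°, beside 55.1% and 60.7% for other clonotypes. Of these 25, 0 were missing from all Il2° libraries and 4 from all Il15° libraries, beside 36 (6.07%) and 71 (11.97%) of the 593 other clonotypes public in wt. The Il15° libraries held 105 to 194 TRAV3 clonotypes each, against 144 to 251 in wt and 136 to 267 in Il2° libraries. In the other direction, TRAV3-3 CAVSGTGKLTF TRAJ27, named here after its values were seen, had 2, 4, 1 and 3 UMIs in Il15° libraries and 0 in all others, a level at or under what a count of 0 allows in the shallowest library.

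Among the 10 TRAV families with a mean share of at least 1%, those whose share followed TRAV3 best over the 12 libraries were TRAV10 (Pearson r = 0.50), TRAV13 (r = 0.41) and TRAV14 (r = 0.23). Shares of 1 library add up to a fixed total, and these values are a description only.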

How the data were processed

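TCRα cDNA of sorted Treg, 1 mouse per library, was sequenced as paired reads. The authors built consensus sequences per UMI with pRESTO (at least 2 reads per UMI), aligned them with MiXCR and wrote clonotype tables with VDJtools. Versions of these tools are not given in the sources used here, and the processing notes name mm10. The deposited tables give the count (UMIs) of each rearrangement, its frequency as a fraction of the library, V and J names, the CDR3, and the V end and J start positions within it. The fractions were not used for tests. V and J names are those of the authors' aligner, and near-identical genes can be split or exchanged by it.

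Members and lists were chosen with earlier results of these data known. Rows with a stop or frame shift were left out: 212 TRAV3 rows with 481 UMIs (5.23% of TRAV3 UMIs), by library 2.41 to 5.20% in wt, 2.95 to 6.62% in Il2° and 4.10 to 8.15% in Il15°. They held 115 of 118 TRAV3 UMIs with TRAJ7 and all 38 and 34 with TRAJ44 and TRAJ47. Shares per library were compared by exact 2-sided Mann-Whitney tests (4 against 4 mice), and sets within a library by exact sign-flip permutation tests over 12 libraries, with Benjamini-Hochberg adjustment. UMI counts of 86 segments, 342 V-J pairs and 647 clonotypes (at least 5 UMIs in at least 4 libraries) were fitted over all 12 libraries with edgeR 4.0.16 (TMM, quasi-likelihood, threshold 0.05). DESeq2 1.42.0 and limma 3.58.1 on log2(percent + 0.01) were alternatives, with others for filters, scaling, merged copies, single libraries and the replicate block. The fit was tested on simulated data. Inserted bases are those between the deposited V end and J start. The last base at the deposited V end matched the germline in 99.6% of TRAV3 rows checked, and the bases before it were not checked. In 113 of 1859 TRAV3 rows with inserted bases, nearly all with TRAJ9, the last of them equalled the germline J at that place. Germline sequences came from GENCODE M21 (GRCm38, the same build as mm10).

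The text names every TRAV3 segment, the 6 clonotypes with the highest mean share, the clonotype with the lowest p where none passed, J segments with at least 5% of TRAV3 in a genotype, and 3 like families. The same replicate numbers in different genotypes mark different mice.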

Additional observations from a re-analysis of the deposited data

Results flagged for a closer look

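In 3 of 72 groups of 4 libraries examined, 1 library stood apart from the other 3 by Dixon's criterion, which chance does in about 1 of 20 groups. The V-proximal J share of TRAV3 was 10.4% in Il2° replicate 3 and 6.28 to 6.36% in the other Il2° libraries. TRAV3D-3 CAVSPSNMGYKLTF TRAJ9 held 0.242% of in-frame UMIs in Il15° replicate 3 and 0.115 to 0.122% in the other Il15° libraries. The leading TRAV3-3 clonotype with TRAJ42 held 0.184% in Il15° replicate 3 and 0.0281 to 0.0463% in the others.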

How the results depend on the processing

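No TRAV3 segment or clonotype was called under any alternative run, and in V-J pairs TRAV3 calls were made only in Il15° against Il2°: 1 with at least 10 UMIs in at least 4 libraries (TRAJ37), 1 with DESeq2, 1 with limma (both TRAJ32), and 0 to 2 when 1 library was left out (both pairs without Il15° replicate 2, adjusted p = 0.0387 for TRAJ37 and 0.0192 for TRAJ32). The calls over all features ranged over the alternatives from 0 to 6, 0 to 3 and 0 to 6 for segments, 0 to 12, 0 to 7 and 0 to 23 for V-J pairs, and 0 to 2, 0 to 9 and 0 to 12 for clonotypes (Il2° against wt, Il15° against wt, Il15° against Il2°). Merging copies was not run for V-J pairs, which already use families. The log2 fold changes of TRAV3-3 and TRAV3D-3 in Il2° against wt changed sign in 4 of 16 and 5 of 15 settings, and that of TRAV3-4 in Il15° against Il2° in 5 of 16. With copies merged by name, which adds TRAV3D-3 to TRAV3-3, the values of TRAV3-3 turned from -0.38 to 0.20 in Il15° against wt and from -0.31 to 0.20 in Il15° against Il2°.

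With each clonotype counted once, the sign turned for the family share in Il15° against wt (-0.0921 points), its inserted bases (-0.117), its middle J share (0.831), and for hydrophobic residues (-0.737), inserted bases (-0.183) and V-distal share (-0.372) of TRAV3 against other clonotypes, while the middle J share against others fell to -0.435. Without the leading clonotype, an alternative added after seeing the data, these within-library differences were 0.627 (hydrophobic), -2.73 (middle), 0.891 (V-distal) and 1.84 (V-proximal, now past the threshold). With the J start moved back over germline J bases, also added after seeing the data, inserted bases in Il15° against wt came to -0.0414. The cause was not tested.

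Leaving out 1 library at a time turned the sign of differences whose test had not passed: the family share in Il15° against wt ranged from -0.104 (without Il15° replicate 3) to 0.660 points and in Il15° against Il2° from -0.607 to 0.157 (without Il15° replicate 4), inserted bases from -0.202 to 0.0340 in Il2° against wt, -0.0141 to 0.0607 in Il15° against wt and -0.0158 to 0.220 in Il15° against Il2°, and the middle J share in Il15° against wt from -6.81 to 1.13 points (without Il15° replicate 3). Against other clonotypes, the middle and V-distal shares of TRAV3 ranged from -7.94 to -5.72 and 4.47 to 7.03 points and passed the threshold no longer without any 1 of wt replicates 2, 3 and 4 or Il15° replicates 2, 3 and 4. On simulated counts 3 and 5 of 200 4-fold changes of single clonotypes were recovered in the Il15° comparisons, beside 153 and 145 of 171 for V-J pairs. The pairs were simulated with a lower spread between libraries as well as at higher counts. A larger part of them was changed, 171 of 342 against 200 of 647 clonotypes, and recovery after adjustment also depends on that part. False calls numbered 0 and 1 for clonotypes and 7 and 9 for V-J pairs.

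The replicate numbers were also used as a block. With the replicate block the family share differed by 0.503 (exact sign-flip p = 0.25), 0.372 (p = 0.625) and -0.130 points (p = 0.75) in Il2° against wt, Il15° against wt and Il15° against Il2°, where 4 pairs cannot go below 0.125, and no TRAV3 feature was called. Same-numbered libraries did not deviate together: over 12 pairs the median r of their deviations was -0.036 (-0.185 to 0.318), over the other 36 pairs 0.017 (-0.261 to 0.269), and 3 of 12 libraries correlated best with their own number.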
